A study of Mus musculus with 12 samples.

Results

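The thick ascending limb is the stretch of the nephron between the thin limb of Henle's loop and the distal convoluted tubule. RNA of 9 genes that mark it was followed through 12 mouse kidney libraries. The 9 genes, Slc12a1, Umod, Kcnj1, Cldn10, Cldn16, Cldn19, Bsnd, Ptger3 and Sostdc1, were taken by gene name from a table of 33188 genes. All 9 were found once in the table and all 9 had enough counts to be tested, with 246 to 290719 counts per gene and library.

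The libraries fell into 3 groups of 4, all from kidney of mice with wild-type genotype. XZSW and HUA refer to a model of hyperuricemia, induced by potassium oxonate, which blocks the urate-degrading enzyme uricase, together with hypoxanthine, a purine that is broken down to urate. XZSW stands for Xin-Zi-Sheng-Wan, a decoction that the study set out to evaluate against kidney injury in that model, HUA for the model, and CTL for the control. The sources used here do not give doses, durations, strain, sex or age. Nothing in the labels says whether the 4 libraries of a group stem from 4 animals. The p-values therefore speak to the spread among these samples alone, and that spread may be technical.

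Cells of the thick ascending limb take up sodium, potassium and chloride from the tubular fluid through NKCC2, the cotransporter encoded by Slc12a1 and blocked by loop diuretics. Potassium returns to the lumen through ROMK, the channel encoded by Kcnj1, and chloride leaves on the blood side through channels that need barttin, the product of Bsnd. The voltage that results drives sodium, calcium and magnesium between the cells through pores made of claudins, Cldn10 for sodium and Cldn16 with Cldn19 for calcium and magnesium. Uromodulin, encoded by Umod, is secreted into the urine by these cells in large amounts. Ptger3 encodes the prostaglandin E2 receptor EP3, and Sostdc1 encodes a secreted antagonist of bone morphogenetic protein and Wnt signalling.

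Library totals ranged from 51.6 to 74.3 M counts. Levels are given in CPM scaled by TMM, and group levels as the mean ± SD (n = 4). Changes are log2 changes ± SE in 1 edgeR quasi-likelihood fit of the 12 libraries. A gene was called at an adjusted p below 0.05 (Benjamini-Hochberg, 19772 genes tested). Scaling by library totals in place of TMM moved the median change of all genes by 0.33 for HUA against CTL, by -0.17 for XZSW against HUA and by 0.16 for XZSW against CTL. The calls over all genes split into 2950 higher and 2538 lower for HUA against CTL, and into 5779 and 1320 with library totals. For XZSW against HUA they split into 1402 higher and 1649 lower, and into 836 and 2714 with library totals. For XZSW against CTL they split into 538 higher and 449 lower, and into 1221 and 224 with library totals. Libraries also differed in how their difference from the CTL mean changed with the GC content of a transcript. The CTL libraries make up that mean, so their own slopes lie around 0 by construction. XZSW3, XZSW4, HUA2, HUA3 and HUA4 had slopes of 0.222 to 0.35 log2 per 10 percentage points, and the other 7 libraries had slopes of -0.0682 to 0.048.

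In HUA against CTL, 2 of the 9 genes fell, Kcnj1 and Cldn10, and 0 rose. Of all tested genes 27.8% were called in that comparison and 12.8% were lower. In XZSW against HUA, 2 of the 9 genes rose, Kcnj1 and Bsnd, and 0 fell, against 15.4% called and 7.09% higher among all tested genes. In XZSW against CTL, 0 of 9 were called by edgeR, against 4.99% of all tested genes. At an unadjusted p under 0.05, edgeR counted 2 of 9 in XZSW against CTL, both higher, DESeq2 called 1 of 9 after adjustment and limma on log2(FPKM + 1) called 0. For HUA against CTL, the count of genes that rose at an unadjusted p under 0.05 was 0 by edgeR and by limma and 1 by DESeq2. For XZSW against HUA, the count of genes that fell at an unadjusted p under 0.05 was 0 by all 3 tools. The 3 comparisons share groups and are not independent. The median log2 change of the 9 genes was -0.37 in HUA against CTL, where that of all tested genes was 0.06. It was 0.37 in XZSW against HUA, where that of all tested genes was 0.01, and -0.23 in XZSW against CTL, where that of all tested genes was 0.04.

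**Figure D1:**
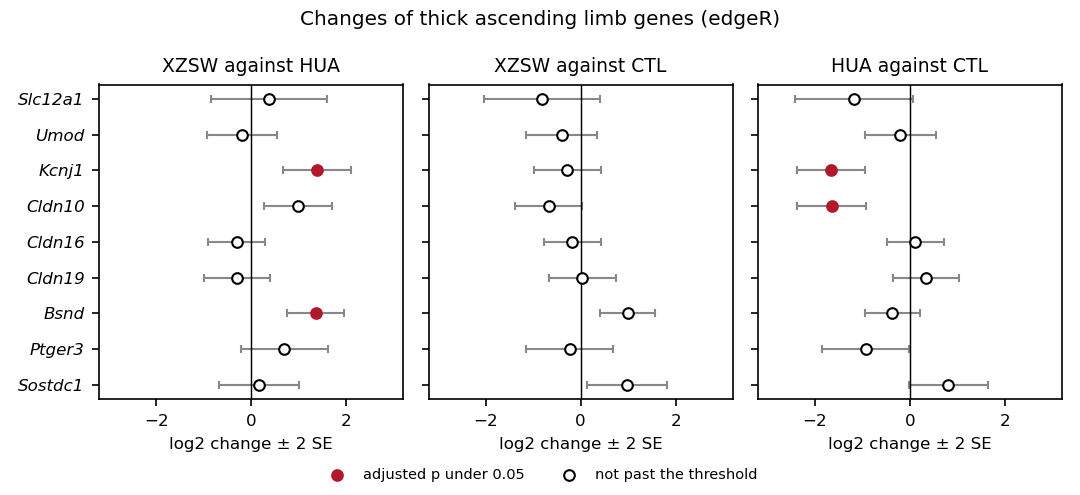
Log2 change of each of the 9 genes, with bars of 2 SE, in the 3 comparisons; filled points have an adjusted p under 0.05. Kcnj1 and Cldn10 are filled below 0 in HUA against CTL, Kcnj1 and Bsnd above 0 in XZSW against HUA, and no point is filled in XZSW against CTL.

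Slc12a1, the apical cotransporter that defines the segment, lies at chr2:125152505-125230002 on the plus strand of GRCm38, the build of the table. It had 468.8, 171.7, 653.4 and 1221 CPM in XZSW libraries 1 to 4, 1104, 473.1, 269.8 and 102.2 CPM in HUA libraries 1 to 4, and 1124, 1026, 931.7 and 1317 CPM in CTL libraries 1 to 4. HUA1 and XZSW4 lay among the CTL libraries, and the other 3 HUA and 3 XZSW libraries lay below all of CTL. The highest library had 7.11 times the level of the lowest in XZSW, 10.8 times in HUA and 1.41 times in CTL. The change in HUA against CTL was -1.17 ± 0.62 and did not pass the test (adjusted p = 0.18). Without HUA1 it was -1.93 (adjusted p = 0.0258), past the threshold. XZSW against HUA gave 0.37 ± 0.61 (adjusted p = 0.741), with a range of -0.85 to 1.59 at 2 SE, and -0.18 without XZSW4. XZSW against CTL gave -0.81 ± 0.61 (adjusted p = 0.466), with a range of -2.03 to 0.42.

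Kcnj1, which encodes the potassium channel ROMK, lies at chr9:32372493-32399186 on the plus strand. It had 128.7, 128.9, 217.8 and 249.9 CPM in XZSW, 102.2, 89, 23.6 and 63.6 CPM in HUA, and 220.8, 204.2, 201.4 and 253.8 CPM in CTL. All 4 HUA libraries lay below all XZSW and all CTL libraries, and HUA3 was the lowest. Kcnj1 fell in HUA to 69.6 ± 34.6 CPM, against 220.1 ± 24 CPM in CTL, a 3.16-fold lower level (log2 change -1.66 ± 0.36, adjusted p = 0.0046). It rose in XZSW to 181.3 ± 62 CPM, against 69.6 ± 34.6 CPM in HUA (log2 change 1.38 ± 0.36, 2.6-fold, adjusted p = 0.0219). The call against HUA was lost without HUA4 (1.34, adjusted p = 0.054), without XZSW3 (1.27, adjusted p = 0.058), without XZSW4 (1.19, adjusted p = 0.0601) and in a fit of only these 8 libraries (1.38, adjusted p = 0.0686). XZSW against CTL gave -0.28 ± 0.35 (adjusted p = 0.687), with a range of -0.99 to 0.43 at 2 SE.

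Kcnj1 is also expressed by principal cells of the collecting duct, so their markers are given beside it. Of 6 principal cell markers, Aqp2, Aqp3, Scnn1b, Scnn1g, Fxyd4 and Hsd11b2, 3 were lower in HUA than in CTL and 4 were higher in XZSW than in HUA, all by the same test. Their summed FPKM was 305.8 to 711.5 in XZSW, 158.7 to 311 in HUA and 270.8 to 325 in CTL, and none was at 0 in every library. Their part in the Kcnj1 result was not tested. In whole-kidney RNA, fewer cells of a type and less RNA per cell cannot be told apart.

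Cldn10, which encodes the claudin of the sodium-permeable pore, lies at chr14:118787908-118874525 on the plus strand. It had 90.1, 92, 150.3 and 189.5 CPM in XZSW, 108.6, 79.7, 28.5 and 48.4 CPM in HUA, and 175.3, 182.2, 259.2 and 215.6 CPM in CTL. All HUA libraries lay below all CTL libraries, while HUA1 lay above XZSW1 and XZSW2. Cldn10 fell in HUA to 66.3 ± 35.2 CPM, against 208.1 ± 38.4 CPM in CTL (log2 change -1.65 ± 0.36, 3.14-fold lower, adjusted p = 0.00471). For Kcnj1 and Cldn10 this call was kept in each of the 12 fits that left out 1 library, with adjusted p of at most 0.0154 and 0.017. Of all tested genes, 15.2% had all HUA libraries below all CTL libraries. XZSW against HUA gave 0.98 ± 0.36 for Cldn10 and did not pass edgeR's test (adjusted p = 0.0823). It passed in DESeq2 (0.97, adjusted p = 0.0313) and without HUA1 (1.31, adjusted p = 0.0229). XZSW against CTL gave -0.67 ± 0.35 (adjusted p = 0.276), with a range of -1.38 to 0.03 at 2 SE. The counts are per gene and do not separate the isoforms of Cldn10, of which one is known mainly from the thick ascending limb and one from the proximal tubule. Of 9 proximal tubule markers, 7 were lower in HUA than in CTL and 7 were higher in XZSW than in HUA. Their summed FPKM was 2334 to 2982 in XZSW, 527.4 to 1693 in HUA and 2430 to 3353 in CTL, with none at 0 in every library, and their part in the Cldn10 result was not tested.

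The promoter windows of 4 genes are printed because Kcnj1 and Cldn10 had the most alike profiles of the 9 over the 12 libraries and Slc12a1 and Umod had the highest levels. Each is 300 bases on the gene's own strand, 250 before and 50 after a RefSeq transcript start, from RefSeq on GRCm38.p6. The windows are Kcnj1 at chr9:32393735-32394034 (+), Cldn10 at chr14:118787621-118787920 (+), Umod at chr7:119479213-119479512 (−) and Slc12a1 at chr2:125152350-125152649 (+). The capital letter in each marks the base at the transcript start.
Kcnj1: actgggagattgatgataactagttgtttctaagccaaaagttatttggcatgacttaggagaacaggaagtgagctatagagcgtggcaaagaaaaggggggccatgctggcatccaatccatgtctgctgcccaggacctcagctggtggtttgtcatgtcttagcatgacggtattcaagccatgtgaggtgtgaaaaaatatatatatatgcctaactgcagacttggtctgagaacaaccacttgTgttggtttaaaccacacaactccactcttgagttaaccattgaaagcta
Cldn10: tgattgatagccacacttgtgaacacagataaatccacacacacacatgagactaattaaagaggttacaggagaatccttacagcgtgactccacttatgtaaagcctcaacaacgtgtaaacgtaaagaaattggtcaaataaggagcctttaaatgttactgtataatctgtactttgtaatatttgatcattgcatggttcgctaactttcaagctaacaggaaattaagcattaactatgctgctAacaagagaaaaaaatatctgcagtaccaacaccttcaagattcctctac
Umod: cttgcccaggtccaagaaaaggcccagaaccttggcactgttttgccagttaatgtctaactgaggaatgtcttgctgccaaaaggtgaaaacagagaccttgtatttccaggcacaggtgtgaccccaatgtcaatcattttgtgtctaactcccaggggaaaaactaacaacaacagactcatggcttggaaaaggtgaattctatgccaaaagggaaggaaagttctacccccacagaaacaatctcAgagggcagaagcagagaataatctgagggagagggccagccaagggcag
Slc12a1: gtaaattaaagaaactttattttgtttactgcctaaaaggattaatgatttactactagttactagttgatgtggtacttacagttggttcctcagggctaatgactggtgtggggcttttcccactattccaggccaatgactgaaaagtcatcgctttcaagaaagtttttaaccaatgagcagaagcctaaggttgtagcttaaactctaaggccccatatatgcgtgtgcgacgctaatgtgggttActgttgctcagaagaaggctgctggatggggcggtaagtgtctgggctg
The letters AAGGTCA, the site of estrogen-related receptors, or their reverse complement TGACCTT, were in none of the 9 windows of the 7 genes that had a sequence in the RefSeq promoter table used here, against 4.72% of 32851 windows of the same length. That says only that these letters are absent from these windows, on both strands. The Kcnj1 window lies inside the gene's span of chr9:32372493-32399186, and the upstream end of that span has no window. The table holds another Cldn10 start, with a window at chr14:118854700-118854999 (+) that is not printed. Its GC content is 72%, against 36% in the printed one. Which isoform each window belongs to was not assigned, so the printed window may not be that of the limb isoform.

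Bsnd, whose product barttin is an accessory subunit of chloride channels, lies at chr4:106483456-106492283 on the minus strand. It had 48.9, 51.7, 88.3 and 110.9 CPM in XZSW, 15.5, 33.7, 28.4 and 39.4 CPM in HUA, and 39.1, 32.1, 39.2 and 40.8 CPM in CTL. All XZSW libraries lay above all HUA and all CTL libraries, and HUA1, high for most of the other genes, was the lowest library for Bsnd. Bsnd rose in XZSW to 74.9 ± 30 CPM, against 29.2 ± 10.2 CPM in HUA (log2 change 1.36 ± 0.30, 2.56-fold, adjusted p = 0.00953). This call was kept in each fit that left out 1 library, with an adjusted p of at most 0.0336. Together with Kcnj1, 2 of 9 genes had all XZSW libraries above all HUA libraries, as 8.98% of all tested genes did.

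XZSW against CTL gave a Bsnd change of 0.99 ± 0.29 that did not pass edgeR's test (adjusted p = 0.0679), though the 4 XZSW libraries lay above the 4 CTL libraries, as was so for 10.3% of all tested genes. It passed with library totals (1.16, adjusted p = 0.0428), DESeq2 (0.99, adjusted p = 0.0149), limma on log2(FPKM + 0.1) (1.13, adjusted p = 0.044), a fit of only these 8 libraries (0.99, adjusted p = 0.0253) and without HUA1 (1.01, adjusted p = 0.0301). With the GC class of the library as a term it was 0.38. HUA against CTL gave -0.37 ± 0.29 (adjusted p = 0.383). With the GC class as a term it was -1.23 (adjusted p = 0.000868). In that term HUA1 is the one HUA library grouped with CTL, and Bsnd has the highest transcript GC content of the 9 genes, 55.8%.

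Barttin is made by intercalated cells as well. Of 6 intercalated cell markers, Atp6v1b1, Atp6v0d2, Slc4a1, Slc26a4, Foxi1 and Rhcg, 5 rose in XZSW against HUA and 2 rose in XZSW against CTL. In HUA against CTL 2 of them rose and 4 fell. Their summed FPKM was 90.4 to 136.1 in XZSW, 43.7 to 68.8 in HUA and 62.4 to 76.8 in CTL, with none at 0 in every library, and their part in the Bsnd result was not tested.

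**Figure D2:**
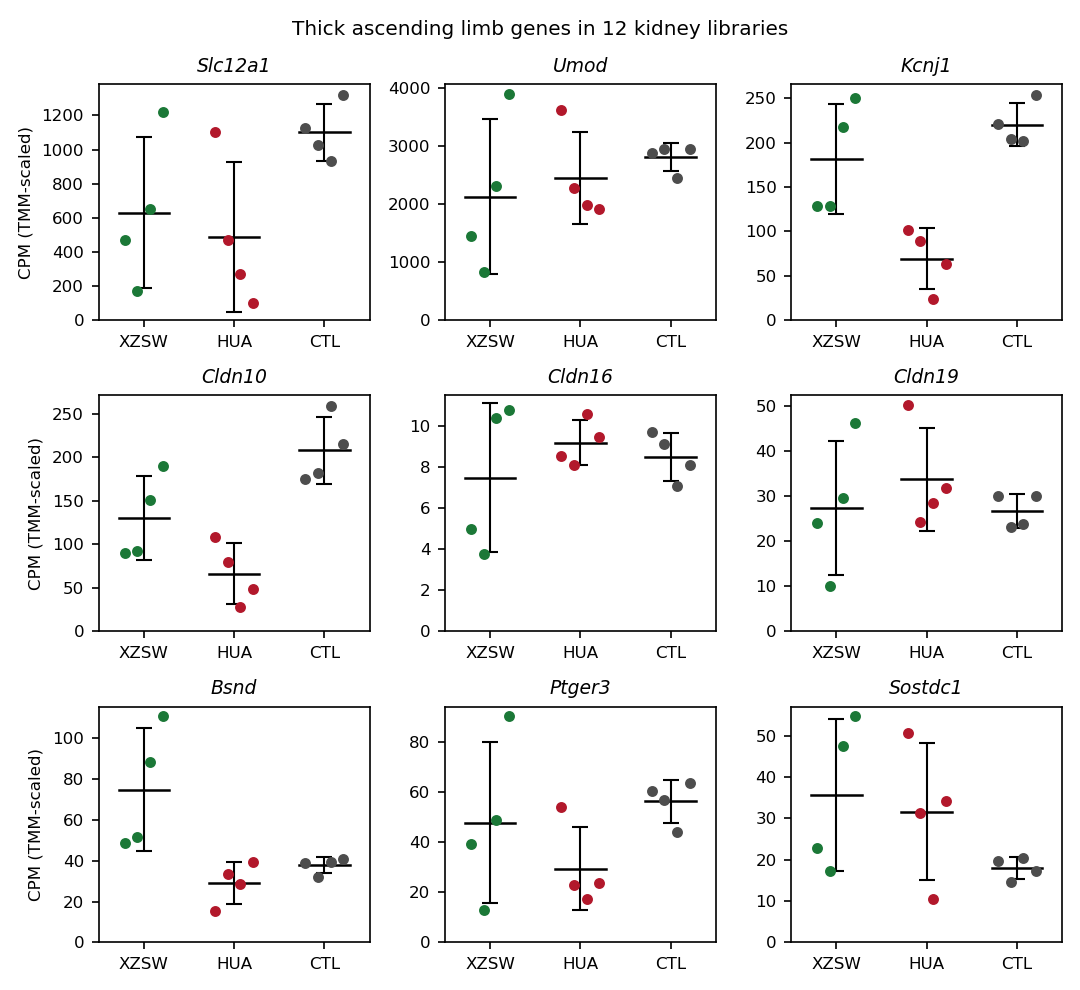
CPM of each of the 9 genes in every library (points), with the mean and SD of each group, for XZSW, HUA and CTL. For Kcnj1 the HUA points lie below all others, for Bsnd the XZSW points lie above all others, and the 4 CTL points of every gene are close together.

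Cldn16, the pore partner whose loss causes urinary wasting of magnesium and calcium in people, lies at chr16:26463135-26482765 on the plus strand. It had 4.99, 3.77, 10.4 and 10.8 CPM in XZSW, 8.56, 8.1, 10.6 and 9.48 CPM in HUA, and 9.71, 9.12, 7.08 and 8.08 CPM in CTL. The groups overlapped, and XZSW1 and XZSW2 were the 2 lowest libraries. HUA against CTL gave 0.11 ± 0.30 (adjusted p = 0.819) with a range of -0.48 to 0.70 at 2 SE, and -0.43 with the GC class as a term. XZSW against HUA gave -0.30 ± 0.30 (adjusted p = 0.554) and XZSW against CTL -0.18 ± 0.30 (adjusted p = 0.762).

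Cldn19, which encodes the claudin that assembles with that of Cldn16, lies at chr4:119255414-119262438 on the plus strand. It had 24, 10.2, 29.6 and 46.2 CPM in XZSW, 50.4, 24.3, 28.6 and 31.8 CPM in HUA, and 30, 23.2, 23.9 and 30 CPM in CTL. All 3 groups overlapped, with XZSW2 the lowest library and HUA1 the highest. HUA against CTL gave 0.34 ± 0.35 (adjusted p = 0.52), XZSW against HUA -0.30 ± 0.35 (adjusted p = 0.625) and XZSW against CTL 0.04 ± 0.35 (adjusted p = 0.966). Within the claudins, the ratio of Cldn16 to Cldn10 FPKM in HUA libraries 1 to 4 was 0.174, 0.224, 0.823 and 0.433. It was 0.122, 0.0903, 0.152 and 0.126 in XZSW and 0.122, 0.11, 0.0602 and 0.0826 in CTL. The 4 HUA libraries lay above the other 8. This ratio was chosen after its values were seen and was not tested.

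Umod, at chr7:119462711-119479282 on the minus strand, gave the most counts of the 9. It had 1458, 831, 2321 and 3908 CPM in XZSW, 3621, 2274, 1985 and 1919 CPM in HUA, and 2881, 2952, 2449 and 2956 CPM in CTL. The groups overlapped, with XZSW4 the highest and XZSW2 the lowest of the 12. HUA against CTL gave -0.20 ± 0.37 (adjusted p = 0.737) with a range of -0.93 to 0.53 at 2 SE, and 0.13 when scaled by library totals. XZSW against HUA gave -0.20 ± 0.37 (adjusted p = 0.764) and XZSW against CTL -0.40 ± 0.37 (adjusted p = 0.556). Umod made up 63 to 66.5% of the counts of the 9 genes in XZSW, 70.8 to 84.5% in HUA and 60.3 to 65.6% in CTL.

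Ptger3, the gene of the EP3 receptor through which prostaglandin E2 restrains salt uptake in the limb, lies at chr3:157566892-157645888 on the plus strand. It had 39.2, 13, 48.8 and 90.3 CPM in XZSW, 54.1, 22.8, 17.5 and 23.6 CPM in HUA, and 60.5, 56.7, 44.1 and 63.8 CPM in CTL. HUA1 lay within CTL and the other 3 HUA libraries lay below all of it. The change in HUA against CTL was -0.93 ± 0.46 (adjusted p = 0.154), and without HUA1 it was -1.36 (adjusted p = 0.0393). XZSW against HUA gave 0.70 ± 0.46 (adjusted p = 0.341) and XZSW against CTL -0.23 ± 0.46 (adjusted p = 0.805), or 0.08 without XZSW2.

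Sostdc1, at chr12:36314139-36318452 on the plus strand, had 22.9, 17.3, 47.4 and 54.8 CPM in XZSW, 50.6, 31.2, 10.4 and 34.3 CPM in HUA, and 19.7, 14.7, 20.3 and 17.2 CPM in CTL. Of the HUA libraries 3 lay above all of CTL and HUA3 lay below. The change in HUA against CTL was 0.81 ± 0.42 (adjusted p = 0.173), and without HUA3 it was 1.14 (adjusted p = 0.0348). XZSW against HUA gave 0.17 ± 0.42 (adjusted p = 0.831), with -0.13 without HUA3, -0.01 without XZSW3 and -0.11 without XZSW4. XZSW against CTL gave 0.98 ± 0.42 (adjusted p = 0.184), with a range of 0.14 to 1.83 at 2 SE.

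Compared per length, Umod was the most abundant of the 9 in every group, at 725.1 ± 466 FPKM in XZSW, 891.4 ± 281.2 FPKM in HUA and 802.9 ± 63.8 FPKM in CTL. Its lowest library in each group lay above the highest library of Slc12a1, which came second with 102.9 ± 73.4 FPKM in XZSW, 84.7 ± 75.5 FPKM in HUA and 151.1 ± 25.9 FPKM in CTL. In CTL, Slc12a1 lay clear of Cldn10 at 63.8 ± 13.8 FPKM, and Kcnj1 at 52.3 ± 7.17 FPKM lay clear of Bsnd at 10.9 ± 1.51 FPKM. Cldn10 and Kcnj1 overlapped there, as did each neighbouring pair from Bsnd through Sostdc1, Ptger3 and Cldn16 down to Cldn19 at 4.97 ± 0.805 FPKM. In XZSW and in HUA every neighbouring pair below Umod overlapped. The lowest mean was that of Cldn16 in XZSW, at 5.99 ± 3.08 FPKM, and that of Ptger3 in HUA, at 5.2 ± 2.88 FPKM.

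Libraries of 1 group differed by more in XZSW and HUA than in CTL, with Cldn16 in HUA as the exception. The highest library had 1.94 to 7.11 times the level of the lowest across the 9 genes in XZSW, 1.31 to 10.8 times in HUA and 1.21 to 1.48 times in CTL. XZSW4 was the highest XZSW library for 9 of 9 genes and XZSW2 the lowest for 6 of 9, and HUA1 was the highest HUA library for 7 of 9. The 9 genes together took 0.231%, 0.121%, 0.374% and 0.595% of all counts in XZSW libraries 1 to 4. They took 0.559%, 0.338%, 0.276% and 0.258% in HUA and 0.409%, 0.385%, 0.358% and 0.452% in CTL.

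**Figure D3:**
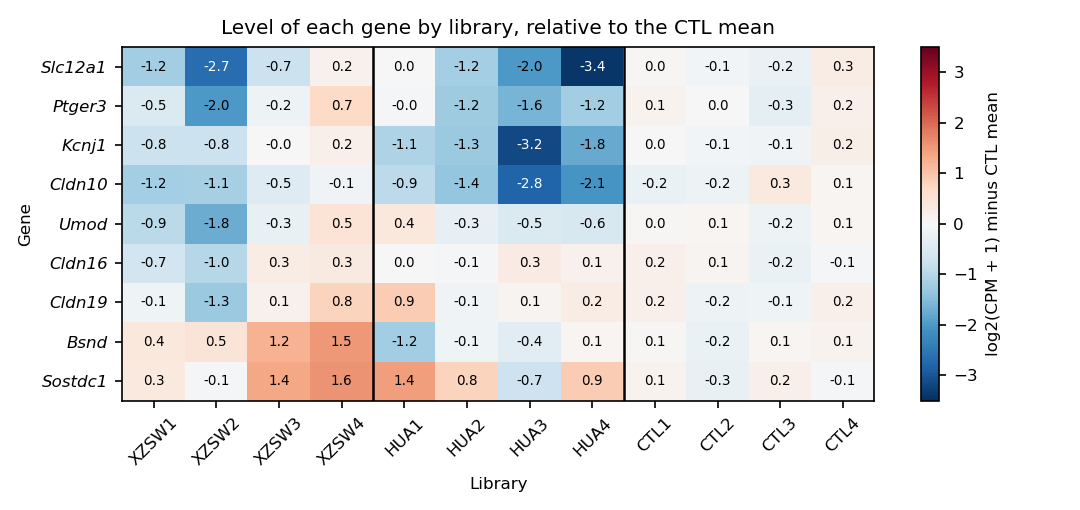
Level of the 9 genes (rows) in the 12 libraries (columns, XZSW, HUA, CTL), as log2(CPM + 1) minus the CTL mean. Slc12a1 is lowest in HUA4 at -3.40 and Kcnj1 in HUA3 at -3.16, and XZSW2 is low for Slc12a1 at -2.66 and Umod at -1.75.

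Ratios between genes of 1 library do not depend on scaling between libraries, but they can vary with transcript GC content and length, for which libraries differed. Transcript GC content was 45.5% for Slc12a1, and ran from 44.6% for Kcnj1 to 55.8% for Bsnd among the 9 genes. The part of GC content and length in the ratios was not tested. Each of the other 8 genes was divided by Slc12a1 in FPKM, and log2 ratios were compared by two-sided exact permutation tests, for which 4 against 4 libraries can give no p below 0.0286. Of 24 such tests 8 reached that p, and after Benjamini-Hochberg adjustment over the 24 none passed 0.05 in the exact permutation tests (smallest adjusted p = 0.0857). A ratio that alone reached the smallest p could not pass after this adjustment, so the outcome does not show that the ratios were alike. The ratio of Umod to Slc12a1 was 6.49, 10.1, 7.41 and 6.68 in XZSW, 6.84, 10, 15.3 and 39.2 in HUA, and 5.35, 6, 5.48 and 4.68 in CTL. All XZSW and all HUA libraries lay above all CTL libraries, and HUA4 stood highest. Ptger3 to Slc12a1 was 0.0848, 0.0768, 0.0757 and 0.0749 in XZSW, against 0.0546, 0.056, 0.0479 and 0.0491 in CTL. These XZSW libraries differed little in this ratio, while their Slc12a1 levels differed by 7.11 times. The other tests at the smallest p were Cldn19 and Sostdc1 over Slc12a1 in HUA against CTL, and Cldn19, Bsnd and Sostdc1 over Slc12a1 in XZSW against CTL, all with the higher ratio in XZSW or HUA. The 24 tests share Slc12a1 as the denominator and are not independent, as a lower Slc12a1 raises every ratio of its library. The Slc12a1 change was -1.17 in HUA against CTL and -0.81 in XZSW against CTL, neither called. In XZSW against CTL, the changes of Umod and Ptger3 themselves were -0.40 and -0.23, also not called. With Umod as the denominator, 4 of the 21 differences changed sign.

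**Figure D4:**
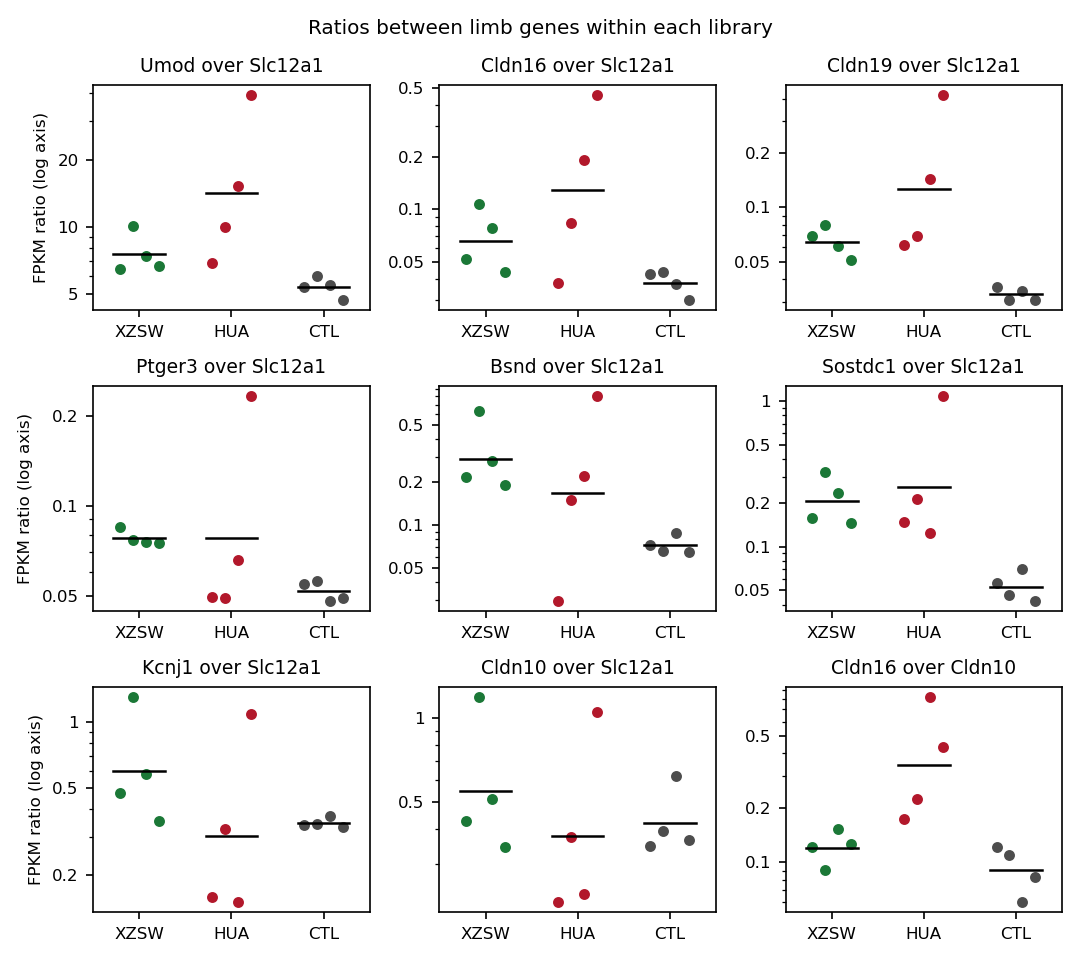
Ratios of FPKM between limb genes in each library (points, log axis), with the geometric mean of each group (line), for XZSW, HUA and CTL. The HUA points spread widely, up to 39.2 for Umod over Slc12a1, a ratio for which the CTL points lie between 4.68 and 6.

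Likeness of profiles was measured as the root mean square difference of log2(CPM + 1), each gene centred on its mean over the 12 libraries, and is given as a description. Among the 9 genes the closest pair was Kcnj1 and Cldn10 at 0.29, then Umod and Cldn19 at 0.31 and Cldn16 and Cldn19 at 0.34. The farthest was Slc12a1 and Bsnd at 1.34. The measure is not scaled by a gene's own spread, so genes that varied little lie close to one another by it. The SD over the 12 libraries was 0.40 for Cldn16, 0.55 for Cldn19 and 0.61 for Umod. It was 1.00 for Kcnj1, 0.93 for Cldn10, 0.72 for Bsnd and 1.21 for Slc12a1. Outside the 9, among 9324 genes with a mean of at least 2 FPKM, Kcnj1 was nearest to Aqp3, a principal cell water channel, at 0.27 and to Acox2, a peroxisomal oxidase, at 0.29. Cldn10 was nearest to Acox2 at 0.23 and to Klf15, a transcription factor, at 0.27. Slc12a1 was nearest to Pcsk6, a proprotein convertase, at 0.32 and to Slc22a13, an organic anion transporter, at 0.37. Umod was nearest to Irx2 and Mrps6, both at 0.26. Bsnd was nearest to Chchd10 and Frs3, both at 0.29. Sostdc1 had the most distant nearest gene of the 9, Tmem160 at 0.41.

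Other genes of the segment's transport, signalling and regulation were taken in 9 lists of 54 genes, all tested. In HUA against CTL 6 rose and 10 fell, which is 29.6% of the 54 beside 27.8% of all tested genes. In XZSW against HUA 9 rose and 3 fell, 22.2% beside 15.4%. In XZSW against CTL 1 rose and 1 fell, 3.7% beside 4.99%. The median log2 change of the 54 was -0.17 in HUA against CTL, 0.20 in XZSW against HUA and 0.01 in XZSW against CTL. Calls kept in every fit that left out 1 library were 11 of 16 in HUA against CTL, 6 of 12 in XZSW against HUA and 1 of 2 in XZSW against CTL. Calls kept under all alternative settings, these fits included, were 9 of 16, 5 of 12 and 1 of 2, in the same order of comparisons.

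Of 6 genes of basolateral exit, 2 fell in HUA against CTL. Both were measured in whole-kidney RNA, which does not separate the limb from other segments. Of the 9 proximal tubule markers, 7 were lower and 0 higher in HUA than in CTL, and 0 were called in XZSW against CTL. Their part in the results of this list was not tested. Kcnj16, a basolateral potassium channel subunit, fell in HUA to 729 ± 192.9 CPM, against 1459 ± 140.4 CPM in CTL (adjusted p = 0.00265). Kcnj16 was still called there with the GC class as a term, with a smaller log2 change of -0.62. It was lower in XZSW than in CTL, with a log2 change of -0.75 ± 0.20 (adjusted p = 0.047), a call lost under 14 of 22 alternatives, among them library totals, both limma fits and the fits without any 1 CTL library, HUA2, XZSW1, XZSW3 or XZSW4. Atp1b1, the beta subunit of the sodium pump, fell in HUA by 0.53 on the log2 scale (adjusted p = 0.0446), and this call too was lost under 14 of 22, among them library totals, both limma fits, the GC class and the fits without any 1 CTL library, HUA2, HUA3, HUA4 or XZSW3.

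Of 9 kinases and regulators of NKCC2, Wnk4 and Klhl3 rose in XZSW against HUA and were called in each fit without 1 library. Wnk4, a kinase of the pathway that activates NKCC2, reached 282.4 ± 48.1 CPM in XZSW, against 139.8 ± 19.2 CPM in HUA (log2 change 1.01 ± 0.15, adjusted p = 0.00132). It was also higher in XZSW than the 153.4 ± 10.4 CPM of CTL (0.88 ± 0.15, adjusted p = 0.0115). Klhl3, the adaptor that marks WNK kinases for degradation, reached 52.1 ± 16.8 CPM in XZSW, against 19.2 ± 9.73 CPM in HUA (1.44 ± 0.34, adjusted p = 0.014, but 0.051 in a fit of those 8 libraries alone). Of 6 distal convoluted and connecting tubule markers, 3 were higher and 1 lower in XZSW than in HUA. In XZSW against CTL 2 of these markers were higher and 0 lower. Their part in the Wnk4 and Klhl3 results was not tested. Adcy6, an adenylyl cyclase, rose in XZSW against HUA by 0.54 ± 0.15 (adjusted p = 0.0298), lost under 9 of 22 alternatives, among them library totals, both limma fits and the fits without HUA3, HUA4, XZSW1, XZSW2 or XZSW3. Cul3, which works with Klhl3, fell in HUA against CTL (-0.59 ± 0.16, adjusted p = 0.0167), lost without HUA3 or HUA4, with library totals, with both limma fits and with the GC class. Oxsr1, another of the 9, was called lower in XZSW than in HUA by DESeq2 (-0.47, adjusted p = 0.0296) and with the GC class (-0.52, adjusted p = 0.0314). The same call came with library totals, both limma fits, a filter of at least 1 CPM in 4 libraries and without HUA2. In that comparison Stk39 was called lower without XZSW4, Cab39 lower with library totals, and Wnk1 higher without HUA1 (0.77).

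Among 5 genes of calcium sensing and the junction, Cldn3, another claudin, rose in HUA to 63.2 ± 35.3 CPM, against 7.78 ± 1.68 CPM in CTL (log2 change 3.02 ± 0.38, adjusted p = 0.000177, and 2.24 with the GC class). It fell in XZSW to 11.3 ± 4.95 CPM, against 63.2 ± 35.3 CPM in HUA (-2.49 ± 0.37, adjusted p = 0.0015). Tjp1, the scaffold ZO-1, rose in HUA by 1.14 ± 0.31 (adjusted p = 0.0146). Pth1r, the parathyroid hormone receptor, was lower in HUA than in CTL (-0.91 ± 0.16, adjusted p = 0.00144) and higher in XZSW than in HUA (0.61 ± 0.16, adjusted p = 0.0246). The second call was lost with library totals, in a fit of those 8 libraries alone and without HUA1, HUA3, XZSW2 or XZSW3. Cldn14, a claudin that blocks the Cldn16 pore, was called higher in HUA at 0.504 ± 0.314 CPM, against 0.0909 ± 0.0857 CPM in CTL (adjusted p = 0.0492), with overlapping libraries and a call lost in 10 of the 12 fits without 1 library, all but those without CTL1 or HUA3. Casr, the calcium-sensing receptor, was not called by edgeR in any comparison. Of 3 hormone receptors, Gcgr, the glucagon receptor, fell in HUA to 14.4 ± 5.41 CPM, against 32.1 ± 5.03 CPM in CTL (-1.16 ± 0.29, adjusted p = 0.0101). Gcgr rose in XZSW to 37.5 ± 12.5 CPM, against 14.4 ± 5.41 CPM in HUA (1.38 ± 0.29, adjusted p = 0.00841).

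Of 6 genes of prostaglandin E2 handling, 3 rose in HUA against CTL. Ptger4, the EP4 receptor, reached 21 ± 17.8 CPM in HUA, against 1.2 ± 0.259 CPM in CTL (log2 change 4.12 ± 0.51, adjusted p = 0.000146, but 3.42 without HUA1 and 1.67 on the log2(FPKM + 1) scale). Ptges, a prostaglandin E synthase, reached 32.8 ± 2.97 CPM in HUA, against 17.8 ± 3.23 CPM in CTL (0.88 ± 0.16, adjusted p = 0.00186), and Slco2a1, the prostaglandin transporter, rose by 1.12 ± 0.30 (adjusted p = 0.0136), a call lost with the GC class (0.75, adjusted p = 0.136). In XZSW against HUA, Ptger4 fell to 3.27 ± 0.458 CPM, against 21 ± 17.8 CPM in HUA (-2.68 ± 0.47, adjusted p = 0.0033, but -1.96 without HUA1). Slco2a1 fell by 0.93 on the log2 scale (adjusted p = 0.0488), a call lost under 15 of 22 alternatives, including the fits without any 1 CTL or XZSW library and without HUA3, where it was -0.48. Ptger1, the EP1 receptor, rose by 1.45 ± 0.38 (adjusted p = 0.0214), lost under 8 of 22, among them both limma fits, the replicate block and the fits without HUA3, HUA4, XZSW3 or XZSW4. Some calls came only under other settings. Hpgd was called lower in HUA than in CTL by DESeq2 (-1.43, adjusted p = 0.0244) and without HUA1 or XZSW2. Ptges was called lower in XZSW than in HUA by DESeq2 (-0.50, adjusted p = 0.0262), with library totals and both limma fits. Ptger4 was called higher in XZSW than in CTL with only those 8 libraries (1.45, adjusted p = 0.00776), by DESeq2 and with the GC class. Ptger4 is also expressed by macrophages. Of 7 macrophage markers 5 rose when HUA was set against CTL, and 4 fell when XZSW was set against HUA. Their summed FPKM was 28 to 54.4 in XZSW, 125 to 208.2 in HUA and 16 to 30.5 in CTL, with none at 0 in every library, and their part in the Ptger4 result was not tested.

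Among 8 partners of Sostdc1 in BMP and Wnt signalling, Bmp7, a ligand made by the distal nephron, fell in HUA to 27.1 ± 4.22 CPM, against 43.5 ± 5.92 CPM in CTL (log2 change -0.68 ± 0.15, adjusted p = 0.00531). It rose in XZSW to 47 ± 6.93 CPM, against 27.1 ± 4.22 CPM in HUA (0.79 ± 0.15, adjusted p = 0.00546). The call in HUA was lost with library totals (-0.35, adjusted p = 0.0964) and with both limma fits. The other 7 were not called by edgeR in any comparison, but some were under other settings. Lrp5, a Wnt co-receptor, was called higher in HUA than in CTL with the GC class as a term (0.45, adjusted p = 0.0419), with library totals, with both limma fits and without HUA4. Bmpr1a, a BMP receptor, was called lower in XZSW than in HUA with the GC class (-0.43, adjusted p = 0.0234), with library totals and with both limma fits. Without HUA1, the co-receptors Lrp4 and Lrp6 were called lower in HUA than in CTL (-1.08 and -0.64), and Lrp4 higher in XZSW than in HUA, as it was in DESeq2 (0.85, adjusted p = 0.0384).

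Of 7 other genes of the limb, 4 fell in HUA against CTL. Another, Slc4a2, was not called in the main fit. It was called higher in HUA than in CTL by DESeq2 (0.43, adjusted p = 0.0276) and with library totals (0.74, adjusted p = 0.00388). The same call came with both limma fits, DESeq2 size factors, the replicate block and a filter of at least 1 CPM in 4 libraries. Fits without HUA2, HUA4 or XZSW3 gave it too. Egf, the precursor of epidermal growth factor, fell to 100.3 ± 91.6 CPM in HUA, against 848.3 ± 116.1 CPM in CTL (log2 change -3.08 ± 0.65, adjusted p = 0.00369). It rose in XZSW to 439.5 ± 174.8 CPM, against 100.3 ± 91.6 CPM in HUA (2.13 ± 0.62, adjusted p = 0.0355), a call lost with no filter, in a fit of those 8 libraries alone and without CTL2, HUA3, XZSW2, XZSW3 or XZSW4. Hpn, the protease hepsin that releases uromodulin from the membrane, fell to 243.8 ± 55.9 CPM in HUA, against 466.6 ± 13 CPM in CTL (-0.94 ± 0.16, adjusted p = 0.00105). In XZSW it was higher than in HUA by 0.52 ± 0.16 (adjusted p = 0.039), lost under 15 of 22 alternatives, including every fit without 1 library but those without HUA2 or XZSW1. In a fit of only the 8 XZSW and CTL libraries, Egf and Hpn were called lower in XZSW (-0.94 and -0.40, adjusted p = 0.0342 and 0.0243). Without HUA1, Slc9a3 was called lower in HUA than in CTL (-1.11) and higher in XZSW than in HUA (1.09). Hpn and Pth1r are also expressed in the proximal tubule, whose markers are given beside Cldn10. Of those 9 markers 7 were lower in HUA than in CTL and 7 were higher in XZSW than in HUA, and their part in the Hpn and Pth1r results was not tested. Ppp1r1a and Ppp1r1b, inhibitors of protein phosphatase 1, fell in HUA against CTL by 1.14 and 2.02 on the log2 scale (adjusted p = 0.0292 and 0.0374), lost under 10 and 12 of 22 alternatives, among them library totals, no filter, the replicate block and the fits without CTL1, CTL2, CTL4, HUA3 or HUA4.

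Of 7 transcription factors of the loop, Irx1, Irx2, Irx3, Pou3f3, Esrrb, Esrrg and Tfap2b, 0 were called by edgeR in any comparison. At an unadjusted p under 0.05 edgeR counted 1, higher, in HUA against CTL, 0 in XZSW against HUA and 1, higher, in XZSW against CTL. DESeq2 called 0, 0 and 1 of them after adjustment, and limma on log2(FPKM + 1) called 1, 0 and 1, in the same order of comparisons. Without HUA1, edgeR called Esrrb and Esrrg lower in HUA than in CTL (-1.60 and -1.14) and Tfap2b higher (0.73), and Esrrb and Esrrg higher in XZSW than in HUA (1.09 and 0.84). Irx1 was called lower in HUA than in CTL with only those 8 libraries (-1.05, adjusted p = 0.0119) and without XZSW2. Pou3f3 was called higher in XZSW than in HUA without XZSW2 (0.59). Tfap2b was called higher in XZSW than in CTL with only those 8 libraries (0.68, adjusted p = 0.0098), with library totals and without HUA1. With library totals it was also called higher in HUA than in CTL (0.82). Of 3 macula densa genes, Nos1, Ptgs2 and Pappa2, 0 were called in any comparison, and 0 reached an unadjusted p under 0.05, by edgeR, DESeq2 or limma. Their means were at most 3.72 CPM.

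**Figure D5:**
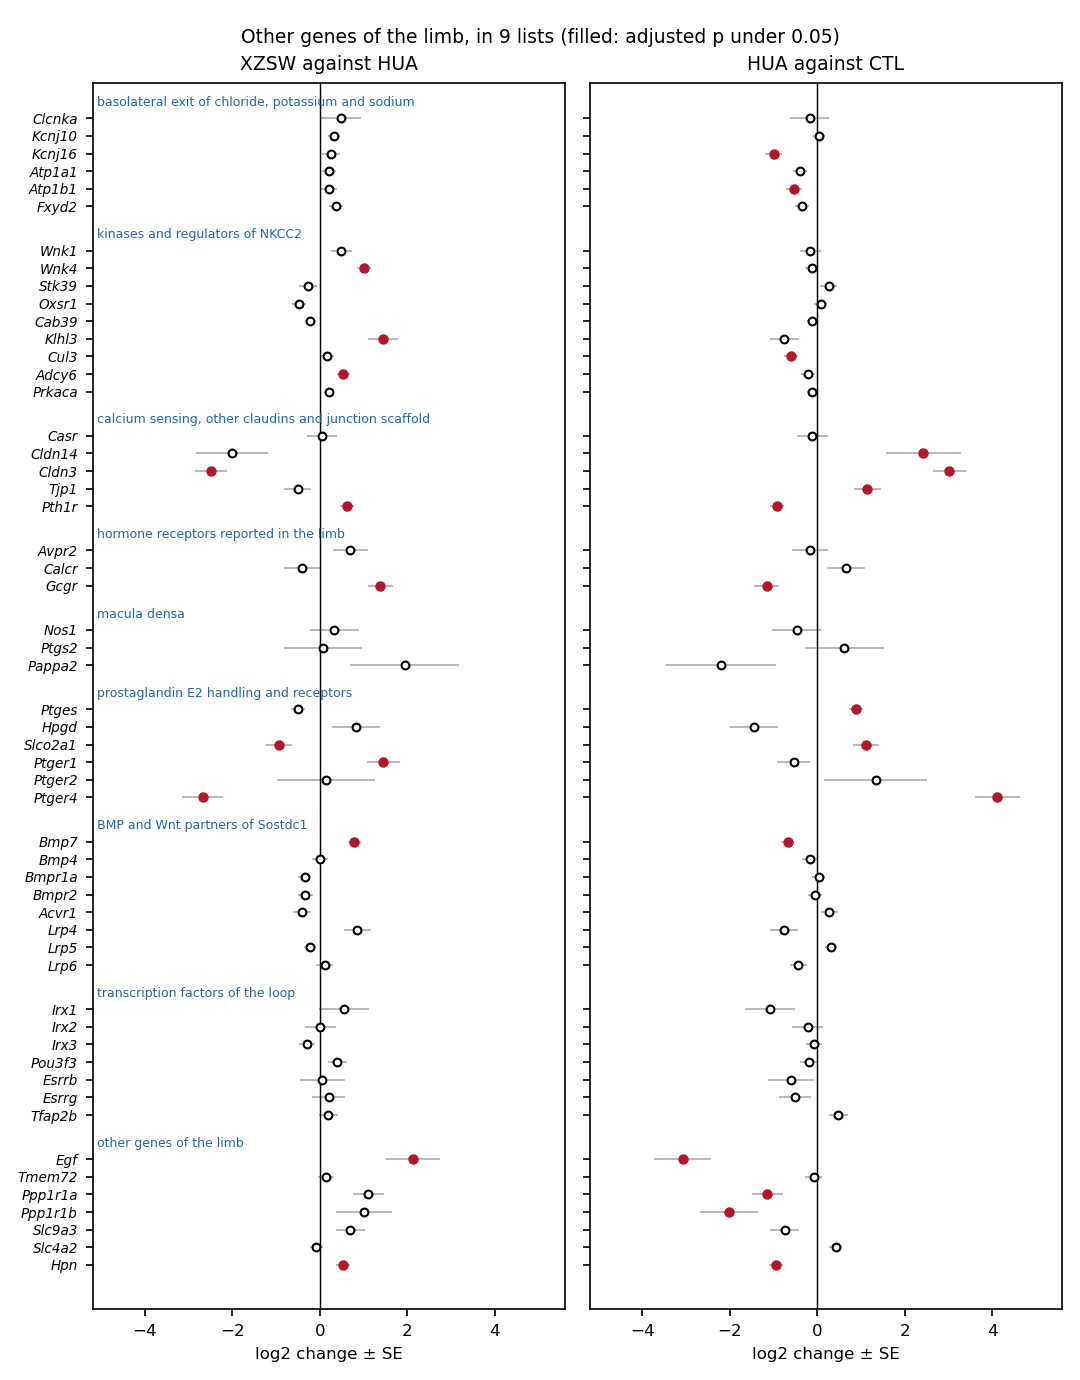
Log2 change ± SE of the 54 other genes of the limb, in 9 lists, for XZSW against HUA and HUA against CTL; filled points have an adjusted p under 0.05. Ptger4, Cldn3 and Egf lie farthest from 0 among the filled points of HUA against CTL, at 4.12, 3.02 and -3.08, and lie on the other side of 0 in XZSW against HUA, a comparison that shares the HUA libraries.

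Other features of the kidneys differed between the groups in the same libraries. All 8 tubular injury markers rose in HUA against CTL and all 8 fell in XZSW against HUA. Their summed FPKM was 241.5 to 349 in XZSW, 1427 to 3928 in HUA and 118.7 to 145 in CTL. Distal convoluted and connecting tubule markers, the segment after the limb, summed to 184.7 to 290.3 FPKM in XZSW, 96.8 to 165.6 in HUA and 111.9 to 124.1 in CTL, with 3 of 6 higher and 1 lower in XZSW against HUA, and 2 higher and 1 lower in HUA against CTL. Mitochondrial genes took 13.5% to 17.2% of counts in XZSW, 7.85% to 11.3% in HUA and 11.7% to 14.9% in CTL. The slope of a library's difference from the CTL mean on transcript length, in log2 per doubling of length, was 0.173 in XZSW1, 0.122 in XZSW2 and 0.252 in HUA1, and -0.0805 to 0.0578 in the other 9 libraries. Adipocyte markers summed to 77.7 FPKM in XZSW1 and 4.69 to 7.43 FPKM in the other XZSW libraries, against 0.262 to 3.7 FPKM in HUA and 3.57 to 8.1 FPKM in CTL. The part of these differences in the changes of the 9 genes was not tested.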

How the data were processed

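RNA of 12 mouse kidney samples was measured by strand-specific sequencing of total RNA, per the labels' protocols. The submitters' processing notes name cutadapt 1.9, HISAT2 2.2.1 and the build GRCm38. The sources used here do not say how reads were counted, or with which strand setting, annotation and filters. Per the file headers, the table that the authors deposited gives each gene's raw count and its FPKM in every sample. Sample descriptions tied its columns to samples: they give C to CTL, N to HUA and M to XZSW, and no other label checks N and M.

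Counts were kept by edgeR's filterByExpr (19772 of 33188 genes), given TMM factors of 0.856 to 1.15, and then compared in 1 fit of all 12 libraries by edgeR's quasi-likelihood F-test, with Benjamini-Hochberg adjustment over all tested genes. SEs were taken from the F statistic. The 2-SE ranges use these. Alternatives were DESeq2, other scalings, limma on log2(FPKM + 1) or log2(FPKM + 0.1), other filters, 8-library fits, a replicate block, a GC class and leaving out each library. The GC class was 1 for libraries with a slope above 0.15. Replicate pairs differed by more than counting error (chi-square per degree of freedom 25.8 to 453), so none was merged. At most 1.41% of a gene's counts lay in a gene overlapping it.

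The 9 genes and all lists were chosen with earlier results of these data known. Some listed genes are not reported here and stand in no count of a list. The text names all 9 genes, up to 4 called genes per list and comparison with the smallest p, genes of counts of 5 or fewer, and the 2 nearest genes by profile. Some genes called only under other settings are named too. Proximal tubule, principal and intercalated cell, macrophage, injury, adipocyte and distal tubule markers are given where they touch a result. The fit was tested on simulated data. The models ran in R 4.3.3 (DESeq2 1.42.0, edgeR 4.0.16, limma 3.58.1). Python 3.11.15 with scipy 1.17.1, pandas 2.3.3 and numpy 2.4.6 served for the rest, and matplotlib 3.10.9 for figures.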

Additional observations from a re-analysis of the deposited data

Results flagged for a closer look

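A sample far from the others of its group was found in 2 of 51 groups checked, where chance gives about 1 in 20. The Umod level of CTL3 was 2449 CPM, and the other 3 CTL libraries had 2881 to 2956 CPM, a gap of 0.853 of the group's range. The Ptger3 level of HUA1 was 54.1 CPM, and the other 3 HUA libraries had 17.5 to 23.6 CPM, a gap of 0.834 of the range.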

How the results depend on the processing

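Of 594 recomputed log2 changes of the 9 genes, 562 kept their direction and side of the threshold, 4 lost a call, 11 gained one and 17 changed sign. The number of the 9 genes called in HUA against CTL was 2, 3 with the GC class, and 2 to 4 without 1 library (4 without HUA1). In XZSW against HUA it was 2, 3 with DESeq2, 1 with 8 libraries and 1 to 3 without 1 library. In XZSW against CTL it was 0, and 1 with library totals, DESeq2, limma on log2(FPKM + 0.1) or 8 libraries, and 0 to 1 without 1 library. Over all genes, XZSW against HUA gave 3051 calls, 1439 with 8 libraries and 1711 to 3817 without 1 library (1711 without HUA3, 1845 without XZSW2). XZSW against CTL gave 987, but 2417 with DESeq2, 1744 with limma on log2(FPKM + 0.1), 529 with no filter, 2625 with 8 libraries, 1750 with the GC class and 133 to 1596 without 1 library (133 without CTL2, 165 without CTL3, 249 without XZSW3, 308 without CTL1, 313 without XZSW1, 324 without CTL4, 520 without XZSW4, 1596 without HUA1). HUA against CTL gave 5488, and 4208 to 6347 without 1 library. Signs changed for Umod in HUA against CTL (0.13 with library totals, 0.11 with both limma fits), Cldn16 in HUA against CTL (-0.43 with the GC class) and Cldn19 in XZSW against CTL (-0.08 with the replicate block, -0.10 with the GC class). Without 1 library, XZSW against HUA ranged from -0.18 to 1.15 for Slc12a1, -0.67 to 0.07 for Umod and -0.13 to 0.48 for Sostdc1, and XZSW against CTL from -0.41 to 0.04 for Cldn16, -0.33 to 0.31 for Cldn19 and -0.74 to 0.08 for Ptger3. With Umod in place of Slc12a1, the log2 ratio difference was -0.20 for Bsnd and -0.82 for Ptger3 in HUA against CTL, 0.59 for Sostdc1 in XZSW against HUA and -0.11 for Cldn10 in XZSW against CTL. The cause of these changes was not tested. Deviations of same-numbered samples correlated at -0.0457 to 0.174. Most samples, though not all, correlated best with the sample of their own number in the other group. The correlations were low, and the labels state no pairing, so the main fit did not pair the samples. Whether same-numbered samples share a batch was not tested. With the replicate block, calls were 5466 for HUA against CTL (2 of the 9 genes), 3076 for XZSW against HUA (2 of 9) and 813 for XZSW against CTL (0 of 9). Each of the 9 genes had at least 246 counts in every library.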

Other observations

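The ratio of Bsnd to Kcnj1 FPKM, chosen after its values were seen and not tested, was 0.459, 0.485, 0.491 and 0.537 in XZSW, 0.183, 0.458, 1.45 and 0.75 in HUA, and 0.214, 0.19, 0.235 and 0.194 in CTL. The XZSW libraries lay above all CTL libraries and close together, and the HUA libraries reached from below the CTL libraries to above the XZSW libraries. The ratio of Kcnj1 to Cldn10 FPKM, also chosen after its values were seen, was 1.11, 1.09, 1.13 and 1.03 in XZSW, 0.731, 0.868, 0.645 and 1.02 in HUA, and 0.98, 0.871, 0.604 and 0.915 in CTL. The XZSW libraries were the 4 highest of the 12.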
